A study of Mus musculus with 14 samples.

Results

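Collagen chain genes were taken as all protein-coding mouse genes whose symbol is Col, a number, the letter a and a number. There were 44 of them among 36047 listed genes, of which 22028 were protein coding, and together they encode chains of 27 collagen types. By class, 11 chains were fibrillar, 6 belonged to the basement membrane collagen (type IV) and 27 to other collagens. The last group held 9 fibril-associated, 6 type VI, 4 transmembrane, 3 short-chain network and 2 multiplexin chains, and 3 anchoring or otherwise unplaced chains.

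A collagen molecule is a triple helix of chains that share a repeated glycine motif, and many types need chains from different genes in fixed proportion. Fibrillar collagens (types I, II, III, V and XI among them) pack into the cable-like fibrils of mesenchyme, bone and cartilage, whereas type IV forms the sheet that underlies epithelium and endothelium in the earliest embryo. Fibril-associated collagens coat or link fibrils, type VI builds beaded microfibrils, and transmembrane collagens sit in the cell surface.

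Expression was measured by RNA sequencing of embryoid bodies, the aggregates that mouse embryonic stem cells form in suspension, grown here in a medium meant to favour mesoderm. The iHA-Foxk1 line served as control, per the labels' protocols, and was compared with a Foxk1 KO line, in which the gene of a forkhead transcription factor was knocked out, at days 3, 5 and 10. Titles of the day 3 and 5 control libraries carry the line name and the letters ND, which are not explained, and those of day 10 say only control. At day 10 a further group of Foxk1 KO embryoid bodies carried the label IWR1, the name of a compound known to inhibit canonical Wnt signalling through Axin. The sources used here do not give its dose or timing, nor any vehicle for the other groups. Each of the 7 groups had 2 libraries, called libraries 1 and 2 by the number in their labels. No second KO line or clone is named, so loss of Foxk1 and other differences between the lines cannot be told apart. All stem cells had been kept on a layer of mouse fibroblasts, most of which the protocol removes by plating before differentiation.

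Foxk1 was read first, as a check of the labels. It stood at 86.2 and 76.4 CPM (counts scaled to a common library total) in the day 3 control libraries and at 16.2 and 16.5 CPM in KO, and at day 5 at 134 and 133 CPM against 38.2 and 33.6 CPM. At day 10 the control libraries held 65.0 and 80.1 CPM, the libraries labelled KO 71.3 and 41.8 CPM and those labelled KO with IWR1 26.4 and 52.9 CPM, so that the groups labelled control and KO overlapped. Directions at day 10 therefore rest on the labels, and for that day KO means the libraries labelled KO, also in comparisons.

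The libraries of days 3 and 5 held 10574194 to 11621032 estimated counts and those of day 10 34466708 to 52747273. A count of 3 in a library stood for 0.253 to 0.298 CPM and for 0.0621 to 0.0827 CPM. Libraries of a group did not always match. Among genes at 5 CPM or more, 0.0746% to 0.415% differed by more than 2-fold between the 2 libraries at day 3, in the day 5 control and in the day 10 control, but 3.62% did in the day 5 KO, 3.98% in the day 10 group labelled KO and 5.16% in the IWR1 group. Collagen genes were among them: 6 of 23 differed by more than 2-fold in the day 5 KO (Col1a1, Col2a1, Col3a1, Col5a1, Col6a3 and Col9a3), 3 of 27 in the day 10 group labelled KO (Col4a1, Col4a2 and Col25a1) and 14 of 28 in the IWR1 group. None of the 28 in the day 5 control or the 29 in the day 10 control did. In the IWR1 group the 14 were all lower in library 1.

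The collagen transcript pool grew and changed its make-up with time. Summed over the 44 genes it stood at 684 and 651 CPM in the day 3 control and 869 and 839 CPM in the day 3 KO, at 3712 and 3213 CPM in the day 5 control and 3514 and 2068 CPM in the day 5 KO. Its day 10 level was 10148 and 11477 CPM in control, 30937 and 22561 CPM in the libraries labelled KO, and 2459 and 5366 CPM in those labelled KO with IWR1. The last 3 groups did not overlap with each other. Day 10 was deposited in a table of its own, so its levels are set beside those of days 3 and 5 without a test. In bulk RNA, fewer cells of a type and less RNA per cell cannot be told apart.

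Per kilobase of transcript, fibrillar chains made up 10.5% and 10.8% of the pool in the day 3 control and 9.95% and 9.15% in the day 3 KO. Their share was 43.1% and 40.5% in the day 5 control against 25.0% and 19.3% in the day 5 KO. Day 10 control libraries had 76.7% and 75.5%, those labelled KO 87.2% and 87.3%, and those with IWR1 52.7% and 64.8%. The leading gene changed as well. Col18a1, whose product carries heparan sulphate in basement membranes, held 43.0% to 64.1% of the pool in the day 3 libraries. At day 5 it still led the control libraries, with 20.0% and 20.4%, but in the KO libraries Col4a1 led with 30.3% and 30.4%. At day 10 Col1a1 led the control libraries, Col1a1 or Col1a2 those labelled KO, and Col3a1 those with IWR1, with 21.1% and 23.9%.

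**Figure D1:**
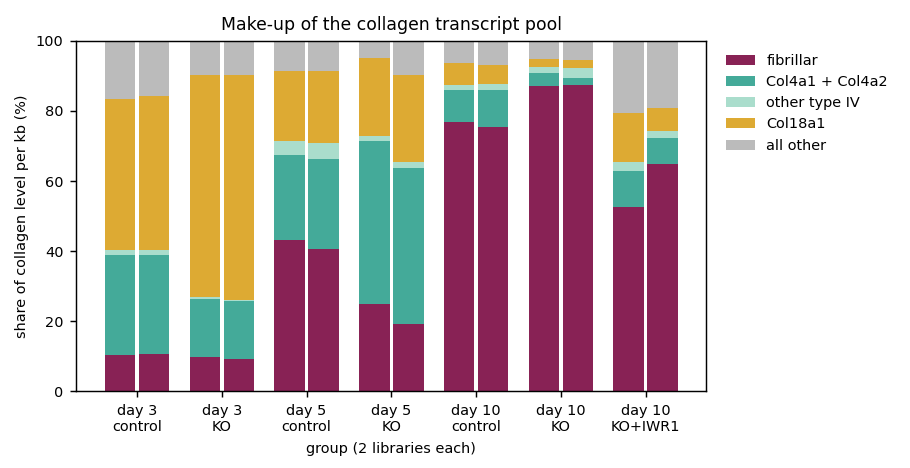
Share of the collagen level per kilobase (y axis, %) held by fibrillar chains, Col4a1 with Col4a2, the other type IV chains, Col18a1 and all other chains in each of the 14 libraries (x axis, bars in pairs by group). Fibrillar chains hold 9.15% to 10.8% at day 3 and 75.5% to 87.3% in the day 10 libraries without IWR1.

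Of the 44 genes, 33 passed the filter on low counts at days 3 and 5 and 41 at day 10, and all 33 were among the 41. Col10a1 (short-chain collagen of growth plate cartilage), Col19a1 and Col28a1 passed in neither table. Another 8 were tested at day 10 alone, namely Col4a3, Col4a4, Col6a4, Col6a5, Col6a6, Col8a1, Col15a1 and Col17a1. Col4a3, Col4a4, Col10a1, Col17a1 and Col28a1 stayed under 1 CPM in every library. The map of levels shows all 44 genes by class.

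**Figure D2:**
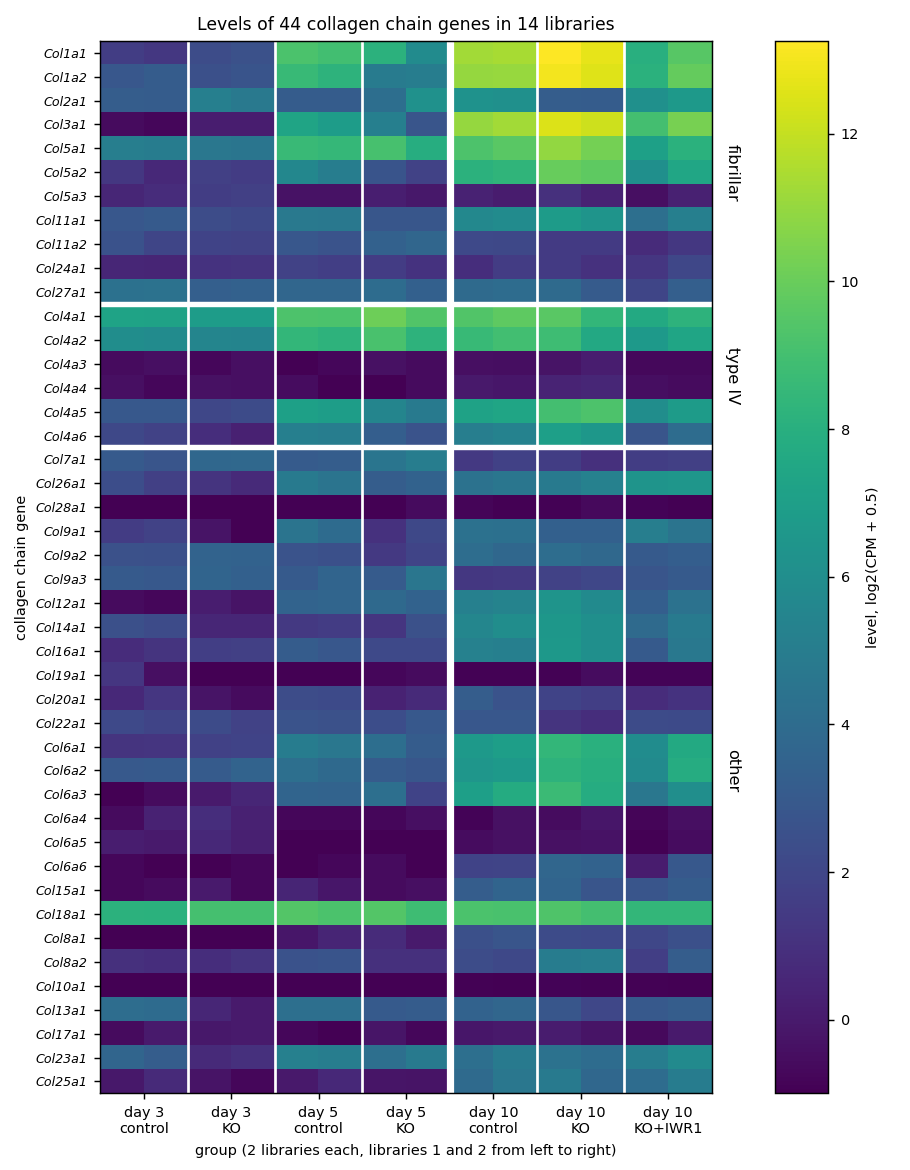
Level of each of the 44 genes (rows, by class) as log2(CPM + 0.5) in each of the 14 libraries (columns, by group, with a wide gap before day 10). Col1a1, Col1a2 and Col3a1 run from at most 8.36 CPM at day 3 to at least 2075 CPM in the day 10 control, while Col18a1 stays between 275 and 687 CPM throughout.

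Between day 3 and day 5 most collagen genes rose in both lines. In the control line 22 of the 33 tested genes rose and 2 fell, where 60.8% of all genes tested were called (30.6% higher and 30.2% lower). In the KO line 20 rose and 2 fell, where 53.8% of all genes were called (28.3% higher and 25.5% lower). The median log2 difference of the collagen genes was 1.84 in control and 1.88 in KO, beside -0.01 and 0.03 over all genes. Day 5 libraries lay above both day 3 libraries for 27 genes in control (41.7% of all genes did) and 23 in KO (39.8%), and below them for 3 (42.1%) and 2 (37.4%). A call means an adjusted p under 0.05 (edgeR, quasi-likelihood test, Benjamini-Hochberg over every gene of the fit). Of these calls, 20 of the 24 control calls and 16 of the 22 KO calls held whichever library of the groups was left out. Of those lost, Col1a1 and Col3a1 in the KO line went without either day 3 KO library, at adjusted p up to 0.0769 and 0.112.

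In the day 3 KO, 4 collagen genes were higher (Col5a3, Col7a1, Col9a2 and Col18a1) and 9 lower (Col4a6, Col9a1, Col11a1, Col13a1, Col14a1, Col20a1, Col23a1, Col26a1 and Col27a1) of 33, which is 39.4% called where 32.9% of all genes were (16% higher and 16.9% lower). The median log2 difference was -0.01, beside -0.01 over all genes. Both KO libraries lay above both control libraries in 15 genes (36.7% of all genes did) and below them in 16 (37.8%). Col13a1 and Col23a1, both transmembrane collagens, kept their calls whichever library was left out. The other 11 calls were each lost in at least 1 of the 4 such fits, and the count fell from 13 to 8 without control library 1 or KO library 1, to 7 without control library 2 and to 4 without KO library 2. With the day 3 libraries fitted alone it was 22 of 29, of which 9 were higher, and calls over all genes went from 4743 to 7334.

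At day 5 collagen genes were mostly lower in KO. Of 33 genes 15 were lower and 2 higher, where 43.5% of all genes were called (21.7% lower and 21.9% higher), and the median log2 difference was -0.92 beside 0.01 over all genes. In 19 genes both KO libraries lay below both control libraries (35.2% of all genes did) and in 5 above (35.4%). The lower genes came from all 3 classes: Col1a2, Col3a1, Col5a2 and Col11a1 among the fibrillar chains, Col4a5 and Col4a6 of type IV, Col6a1 and Col6a2 of type VI, the fibril-associated Col9a1, Col9a2, Col16a1 and Col20a1, and Col8a2, Col13a1 and Col26a1. Col7a1, the anchoring fibril collagen of skin, and the fibrillar Col11a2 were higher. The call held in every fit that left out a library for 12 of the 17. Col6a1, Col9a2 and Col16a1 lost it without control library 1 (adjusted p = 0.0811, 0.0664 and 0.113), and Col3a1 and Col11a2 without either control library (adjusted p up to 0.131 and 0.106). Across these fits the count ran from 12, without control library 1, to 25, without KO library 1.

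The difference between the lines was itself different on the 2 days for 14 of 33 genes, 9 of them lower and 5 higher at day 5 relative to day 3, where 24.2% of all genes were called (10.8% lower and 13.4% higher). Col5a2 (-3.87 ± 0.60, adjusted p = 0.0032) and Col1a2 (-3.01 ± 0.28, adjusted p = 0.000313) moved furthest down. Col13a1 (3.26 ± 0.32, adjusted p = 0.000137) moved furthest up, being further below control in KO at day 3 than at day 5. These are log2 differences of differences ± SE. Of the 14, 7 held in all 8 fits that left out a library (Col1a2, Col5a2, Col6a2, Col9a2, Col11a1, Col13a1 and Col23a1). The count ran from 8, without day 3 control library 1 or day 3 KO library 2, to 24, without day 5 KO library 1.

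At day 10, by the labels, 4 of 41 collagen genes differed between KO and control, where 5.27% of all genes were called. Col4a5 and Col8a2 were higher (1.92% of all genes were) and Col2a1 and Col22a1 lower (3.35%). The median log2 difference was 0.57 beside 0.02 over all genes. In 22 of 41 genes both libraries labelled KO lay above both control libraries, as in 25.7% of all genes, and in 7 both lay below, as in 25.3%. Only Col2a1 kept its call whichever library was left out. Col4a5, Col8a2 and Col22a1 each lost it without either control library or without library 2 labelled KO, and the count then fell to 1. With DESeq2 the count was 15, with no filter on low counts 12, and with the 4 libraries alone 13, and Col1a1, Col1a2 and Col5a2 were among the higher genes in all 3. Calls over all genes rose as well, to 2023, 1737 and 1202 in these fits, against 897 in the fit that gave 4.

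With IWR1, 6 of 11 fibrillar chains were called lower and 1 higher than in the libraries labelled KO, and 3 of 6 type IV chains were called lower. Of these type IV chains, Col4a4 never passed 0.956 CPM. The more abundant Col4a1 and Col4a2 were not called in the fit over all 6 libraries. Against the libraries labelled KO, 14 of 41 genes were lower and 5 higher, where 13.9% of all genes were called (8.08% lower and 5.77% higher), and the median log2 difference was -1.19 beside -0.01 over all genes. Both IWR1 libraries lay below both libraries labelled KO in 26 genes (30.2% of all genes did) and above them in 7 (28.6%). Lower were the fibrillar Col1a1, Col1a2, Col3a1, Col5a1, Col5a2 and Col11a1, the type IV Col4a4, Col4a5 and Col4a6, and Col6a3, Col8a2, Col12a1, Col14a1 and Col16a1. Higher were Col2a1, Col9a1, Col9a3, Col22a1 and Col26a1. Calls of Col1a1, Col1a2, Col2a1, Col4a5, Col4a6, Col5a1 and Col5a2 held whichever library was left out, and the other 12 were lost in at least 1 such fit. The count was 8 without library 1 labelled KO or IWR1 library 1 and 22 without IWR1 library 2.

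Against the day 10 control, the IWR1 group had 2 higher (Col9a3 and Col26a1) and 2 lower genes (Col1a1 and Col20a1) of 41, where 9.12% of all genes were called (2.99% higher and 6.13% lower). Both IWR1 libraries lay below both control libraries in 24 genes (33.5% of all genes did) and above them in 4 (33.6%). No call held in every fit that left out a library: the count was 0 without control library 1, 2 without control library 2 or IWR1 library 1, and 18 without IWR1 library 2. DESeq2 called 19, of which 17 were lower, and over all genes it called 3456 against 1553 by edgeR. The comparisons of KO with control and of IWR1 with KO share the libraries labelled KO, so opposite signs in them are given as values side by side and not as a result.

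**Figure D3:**
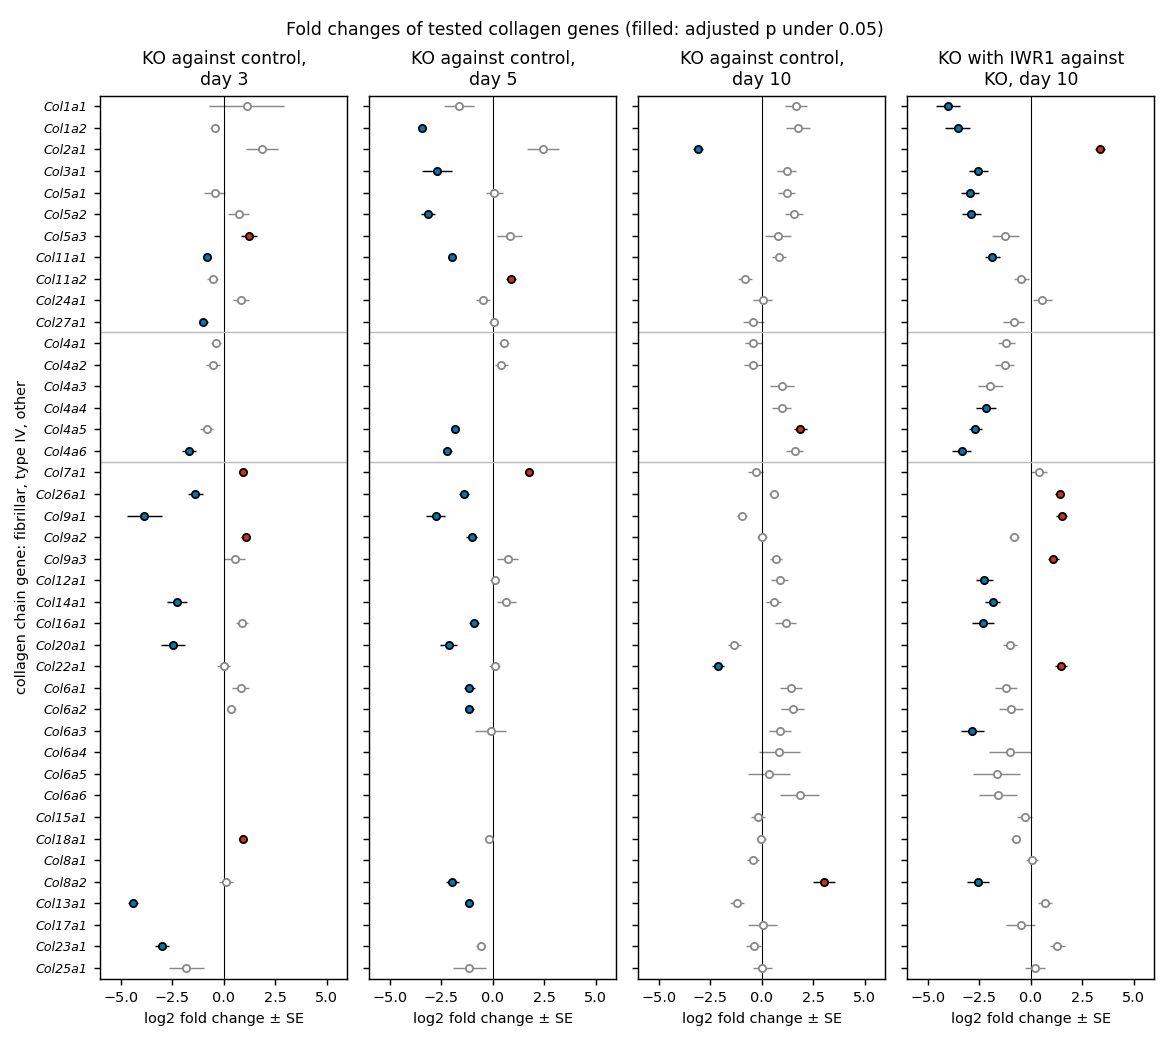
Log2 fold change ± SE (x axis) of each tested gene (y axis, by class) for KO against control at days 3, 5 and 10 and for IWR1 against KO at day 10, with calls filled red (higher) or blue (lower). Filled points lie mostly on the lower side at day 5 (15 of 17) and for IWR1 (14 of 19), and Col3a1, Col6a3 and Col12a1 are left out at day 3, where control held 2 or 3 counts.

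Type I collagen, the main fibril of mesenchyme and bone, is made of chains from Col1a1 (chromosome 11, 94936224 to 94953042) and Col1a2 (chromosome 6, 4504814 to 4541544), positions being those of mm10. Col1a1 stood at 2.55 and 2.02 CPM in the day 3 control and 4.42 and 5.40 CPM in KO. Its day 5 level was 596 and 484 CPM in control and 288 and 58.1 CPM in KO, where library 1 held several times the level of library 2. Both KO libraries lay below both control libraries, and the difference was not called, with a log2 fold change of -1.64 ± 0.75 (adjusted p = 0.151). Col1a2 stood at 391 and 303 CPM in the day 5 control and 30.1 and 33.1 CPM in KO, and the 2 KO libraries agreed. Its log2 fold change in KO was -3.45 ± 0.14 (adjusted p = 2.24e-06), and it ran from -3.63 to -3.26 when a library was left out. Its day 3 level was 6.95 and 8.36 CPM in control and 5.12 and 6.08 CPM in KO, a difference of -0.45 ± 0.23 (adjusted p = 0.183) that was not called.

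At day 10 both type I chains were among the most abundant transcripts of the pool. Col1a1 stood at 2518 and 2684 CPM in control, 9821 and 6682 CPM in the libraries labelled KO and 259 and 759.6 CPM with IWR1. Col1a2 stood at 2075 and 2152 CPM in control, 8098 and 6150.0 CPM in the group labelled KO and 278 and 946 CPM with IWR1. For both genes the 3 groups did not overlap, with the group labelled KO on top and IWR1 at the bottom. IWR1 against KO gave -4.02 ± 0.59 (adjusted p = 0.0142) for Col1a1 and -3.54 ± 0.61 (adjusted p = 0.0189) for Col1a2. KO against control gave 1.67 ± 0.53 (adjusted p = 0.142) and 1.75 ± 0.57 (adjusted p = 0.145), neither of which was called.

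Col3a1 (chromosome 1, 45311538 to 45349706), the chain of type III collagen, which is found with type I in soft and young tissue, covered the widest range among members counted in every library. In the day 3 control it had 3 counts over both libraries, 0.176 and 0.0880 CPM, and in the day 3 KO 0.618 and 0.591 CPM. It reached 157 and 119 CPM in the day 5 control against 35.6 and 6.19 CPM in KO, and all KO values lay below control. The log2 fold change of -2.73 ± 0.72 (adjusted p = 0.0383) was called, but ran from -4.48 to -1.97 when a library was left out. By day 10 the libraries held 2086 and 2462 CPM in control, 5832 and 4646 CPM in the libraries labelled KO and 521 and 1275 CPM with IWR1. IWR1 against KO gave -2.54 ± 0.47 (adjusted p = 0.0222), and the call was lost without library 1 of either group (adjusted p up to 0.0559).

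Type V collagen starts fibrils, and its chains come from Col5a1 (chromosome 2, 27886425 to 28039514), Col5a2 (chromosome 1, 45374321 to 45503282) and Col5a3. Col5a2 and Col3a1 lie next to each other on opposite strands, 24.6 kb apart. Col5a2 stood at 47.8 and 32.6 CPM in the day 5 control and 6.04 and 3.05 CPM in KO, all KO values being lower, with a log2 fold change of -3.14 ± 0.34 (adjusted p = 0.000268). Col5a1, its partner, stood at 403 and 355 CPM in control and 558 and 234 CPM in KO, where the KO libraries lay on both sides of control, with 0.06 ± 0.42 (adjusted p = 0.918). With IWR1 both were lower than in the libraries labelled KO: Col5a1 stood at 2004 and 1263 CPM in the group labelled KO and 138 and 278 CPM with IWR1 (-2.97 ± 0.44, adjusted p = 0.0146). Col5a2 stood at 981 and 841 CPM in the group labelled KO and 68.6 and 176 CPM with IWR1 (-2.90 ± 0.45, adjusted p = 0.0168). In the day 10 control they were at 620.0 and 796 and at 291 and 326 CPM, between the other groups. Col5a3 had little signal, at most 2.70 CPM in the day 3 KO, and fell from day 3 to day 5 in both lines.

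The cartilage-type fibrillar chains took other courses. Col2a1 (chromosome 15, 97975602 to 98004695), the chain of type II collagen, which is known from cartilage and also from notochord and early epithelia, stood at 77.1 and 70.3 CPM in the day 10 control, 8.56 and 8.33 CPM in the libraries labelled KO and 71.7 and 102 CPM with IWR1. The libraries labelled KO were lowest and did not overlap with the other groups. The log2 fold change was -3.12 ± 0.24 (adjusted p = 0.00551) for KO against control and 3.36 ± 0.25 (adjusted p = 0.00538) for IWR1 against KO, and both calls held without any 1 library. IWR1 and control overlapped, at 0.23 ± 0.22 (adjusted p = 0.483). At the earlier days the order was the opposite, 8.71 and 8.27 CPM in control and 35.6 and 26.3 CPM in KO at day 3, and 8.32 and 8.24 CPM in control and 17.5 and 73.2 CPM in KO at day 5. The KO libraries lay above control on both days, at 1.86 ± 0.77 (adjusted p = 0.138) and 2.46 ± 0.77 (adjusted p = 0.0601). Neither difference was called by edgeR with all libraries. DESeq2 called both, as did edgeR with the groups of day 3 alone and at day 5 without either KO library.

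Col11a1, a type XI chain that joins type II and type V fibrils, stood at 26.6 and 26.01 CPM in the day 5 control and 6.68 and 6.62 CPM in KO. The groups did not overlap and the libraries of each agreed, with a log2 fold change of -1.98 ± 0.15 (adjusted p = 1.41e-05). Its day 10 level was 50.02 and 59.1 CPM in control, 113 and 82.8 CPM in the libraries labelled KO and 17.8 and 35.7 CPM with IWR1. IWR1 against KO gave -1.87 ± 0.36 (adjusted p = 0.0246), which was lost without library 1 of either group. Col11a2 moved the other way at day 5, from 6.73 and 5.76 CPM in control to 10.3 and 12.7 CPM in KO (0.88 ± 0.24, adjusted p = 0.0161). The minor fibrillar chains Col24a1 and Col27a1 stayed at or below 3.61 and 20.3 CPM in all libraries, and of them only Col27a1 was called between the lines, at day 3 (-0.99 ± 0.21, adjusted p = 0.0058).

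**Figure D4:**
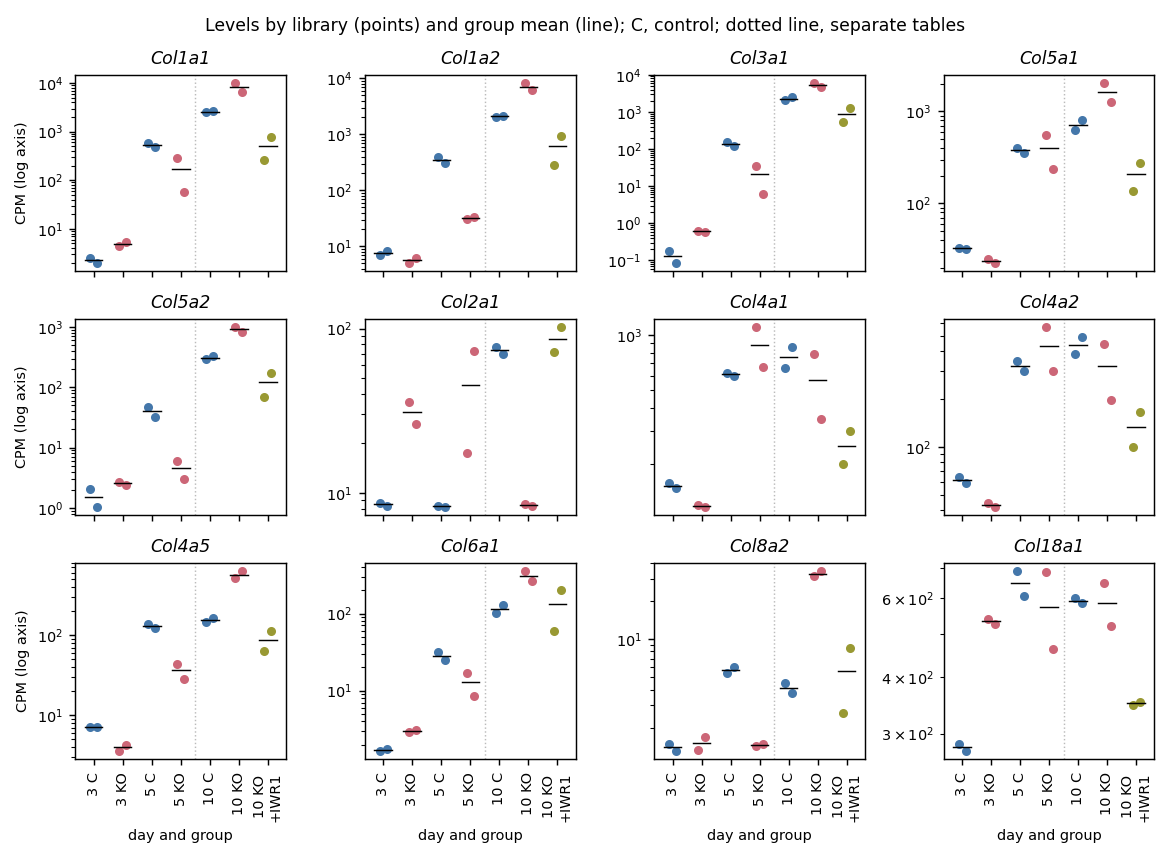
Level of 12 collagen genes in CPM (y axis, log scale) by day and group (x axis), with a point for each library and a line at the group mean. The fibrillar Col1a2 and Col5a2 lie lower in KO than in control at day 5, and at day 10 Col1a1, Col1a2, Col3a1, Col5a1 and Col5a2 are highest in the libraries labelled KO and lowest with IWR1.

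Type IV collagen is assembled from fixed sets of chains, and its genes lie head to head in pairs: Col4a1 with Col4a2, Col4a3 with Col4a4, and Col4a5 with Col4a6. Chains from Col4a1 and Col4a2 make the network of all early basement membranes. In the mm10 annotation the 2 genes start on opposite strands of chromosome 8 so that their first 22 bases overlap. The stretch from 11312801 to 11312830, plus strand, is shown because it holds both start sites, at 11312826 for Col4a1 (read leftwards) and 11312805 for Col4a2 (read rightwards), with the shared bases in capitals.
Col4a1 and Col4a2, chr8:11312801-11312830: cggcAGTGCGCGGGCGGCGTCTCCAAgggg

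Col4a1 (chromosome 8, 11198423 to 11312826) and Col4a2 (chromosome 8, 11312805 to 11449287) rose together from day 3 to day 5. Col4a1 stood at 156 and 147 CPM in the day 3 control, 119.6 and 117 CPM in KO, 625 and 598 CPM in the day 5 control and 1098 and 669.7 CPM in KO. Col4a2 stood at 64.3 and 58.9 CPM in the day 3 control, 44.4 and 42.04 CPM in KO, 349 and 302 CPM in the day 5 control and 565 and 303 CPM in KO. The log2 rise of Col4a1 was 2.01 ± 0.24 (adjusted p = 0.00148) in control and 2.90 ± 0.25 (adjusted p = 0.000558) in KO, and that of Col4a2 2.40 ± 0.33 (adjusted p = 0.00291) and 3.33 ± 0.35 (adjusted p = 0.00133). Unlike Col1a2 and Col5a2, both had estimates above 0 between the lines at day 5, and neither was called in the fit over all libraries. Col4a1 gave 0.53 ± 0.23 (adjusted p = 0.129), with both KO libraries above control, and Col4a2 0.42 ± 0.31 (adjusted p = 0.335), with overlapping groups. The 2 KO libraries stood apart for both genes, so the missing calls do not show equal levels.

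At day 10 Col4a1 stood at 659 and 862 CPM in control and 789 and 351 CPM in the libraries labelled KO, which differed by more than 2-fold and overlapped with control. With IWR1 it stood at 199 and 301 CPM, below the other groups. The difference from KO was -1.19 ± 0.43 (adjusted p = 0.108) and from control -1.60 ± 0.43 (adjusted p = 0.0678), and neither was called in the fit over all 6 libraries. DESeq2 called both.

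The X-linked pair Col4a5 (chromosome X, 141475385 to 141689234) and Col4a6 (chromosome X, 141165403 to 141474076) is known from kidney, smooth muscle and skin basement membranes, and its RefSeq start sites lie 1343 bases apart. The bases before each start are shown because both genes were lower in KO at day 5, with matches to a CCAAT box (CCAAT) or a GC box (GGGCGG), on either strand, in capitals. For Col4a5 the window stops where the first annotated exon begins.
Col4a5, chrX:141475169-141475384, plus strand: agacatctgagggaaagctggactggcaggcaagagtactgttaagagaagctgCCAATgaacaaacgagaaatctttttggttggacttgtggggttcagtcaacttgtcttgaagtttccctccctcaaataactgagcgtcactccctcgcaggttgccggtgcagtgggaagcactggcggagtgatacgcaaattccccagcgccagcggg
Col4a6, chrX:141474077-141474326, minus strand: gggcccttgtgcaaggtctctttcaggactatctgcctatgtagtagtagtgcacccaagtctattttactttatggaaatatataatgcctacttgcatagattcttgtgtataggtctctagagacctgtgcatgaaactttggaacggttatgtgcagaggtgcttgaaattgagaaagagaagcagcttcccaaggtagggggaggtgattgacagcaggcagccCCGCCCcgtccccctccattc

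Col4a5 stood at 7.12 and 7.13 CPM in the day 3 control and 3.62 and 4.31 CPM in KO, and at 136 and 124 CPM against 44.1 and 28.2 CPM at day 5. Col4a6 stood at 3.69 and 3.08 against 1.33 and 0.760 CPM and at 35.7 and 32.7 against 8.93 and 5.75 CPM. On both days all KO values of both genes lay below control. The day 5 fold changes (log2) came to -1.85 ± 0.18 (adjusted p = 0.000219) and -2.22 ± 0.22 (adjusted p = 6.62e-05), and at day 3 -0.84 ± 0.30 (adjusted p = 0.0673) and -1.70 ± 0.35 (adjusted p = 0.00574), of which that of Col4a6 was called and lost without KO library 2 (adjusted p = 0.0611).

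At day 10 the order of the labels was the opposite. Col4a5 stood at 147 and 164 CPM in control, 513 and 623 CPM in the libraries labelled KO and 63.04 and 111 CPM with IWR1, and Col4a6 at 34.4 and 39.9 CPM in control, 130.1 and 93.3 CPM in the group labelled KO and 6.21 and 15.8 CPM with IWR1. The groups did not overlap for either gene, with the group labelled KO highest and IWR1 lowest. Col4a5 was called in both comparisons, with 1.87 ± 0.31 (adjusted p = 0.0264) for KO against control and -2.71 ± 0.32 (adjusted p = 0.0102) for IWR1 against KO. For Col4a6 these were 1.59 ± 0.43 (adjusted p = 0.0946), not called, and -3.35 ± 0.46 (adjusted p = 0.0132). Col4a3 and Col4a4, which serve kidney and lung basement membranes in the adult, never passed 0.601 and 0.956 CPM.

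Among the fibril-associated collagens, Col12a1 and Col14a1 decorate type I fibrils. Col12a1 had 3 counts over both day 3 control libraries and stood at 11.3 and 12.3 CPM in the day 5 control and 14.3 and 10.6 CPM in KO, which overlapped. The day 10 libraries held 36.00 and 41.1 CPM in control, 83.5 and 56.3 CPM in the libraries labelled KO and 8.94 and 20.3 CPM with IWR1 (against KO, -2.26 ± 0.42, adjusted p = 0.0221). Col14a1 stood at 5.10 and 4.22 CPM in the day 3 control and 0.972 and 0.929 CPM in KO (-2.28 ± 0.50, adjusted p = 0.00733), which did not overlap. Its day 10 values were 45.4 and 62.8 CPM in control, 91.4 and 68.9 CPM in the group labelled KO and 14.8 and 29.4 CPM with IWR1, with -1.86 ± 0.37 (adjusted p = 0.0273) for IWR1 against KO. The IWR1 calls of both genes were lost without library 1 of either group.

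Type IX collagen links cartilage fibrils, and its 3 chains did not move as a unit. Col9a1 was lower in KO at day 5, at 21.7 and 15.1 CPM in control and 1.53 and 3.84 CPM in KO (-2.77 ± 0.47, adjusted p = 0.00221), while Col9a3 stood at 7.82 and 11.4 CPM in control and 7.94 and 23.5 CPM in KO, which overlapped. Col9a2 was higher in KO at day 3 (5.28 and 5.19 CPM in control and 11.2 and 10.6 CPM in KO) and lower at day 5 (5.84 and 5.06 CPM in control and 2.07 and 3.23 CPM in KO), with non-overlapping groups and calls on both days (1.06 ± 0.23 and -1.03 ± 0.26). With IWR1 at day 10, Col9a1 (33.8 and 22.01 CPM against 9.89 and 9.89 CPM, adjusted p = 0.0188) and Col9a3 (1.09 ± 0.27, adjusted p = 0.0451) were higher than in the libraries labelled KO, and Col9a2 was not called (-0.84 ± 0.24, adjusted p = 0.0665). Of the lesser members, Col20a1 was lower in KO on days 3 and 5 (-2.48 ± 0.58 and -2.15 ± 0.43). Its level was low, with a minimum of 0.169 CPM and a maximum of 8.65 CPM over the 14 libraries. Col16a1 was lower at day 5 (-0.92 ± 0.25), and Col22a1, known from tissue junctions, in the libraries labelled KO at day 10 (-2.14 ± 0.28).

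Type VI chains build beaded microfibrils around cells. Col6a1 stood at 1.67 and 1.76 CPM in the day 3 control and 31.5 and 25.1 CPM in the day 5 control, against 2.92 and 3.12 CPM in the day 3 KO and 17.1 and 8.54 CPM in the day 5 KO, so that KO libraries lay above control at day 3 and below it at day 5. Its neighbour Col6a2 did the same, at 18.1 and 14.4 CPM in control and 8.12 and 6.62 CPM in KO at day 5. Their day 5 fold changes (log2) came to -1.15 ± 0.28 (adjusted p = 0.0108) and -1.14 ± 0.21 (adjusted p = 0.00211). Col6a3, their partner chain, stood at 11.8 and 11.1 CPM in control and 18.2 and 3.14 CPM in KO, where the KO libraries lay on both sides of control. At day 10 Col6a1 stood at 102 and 129 CPM in control, 351 and 265 CPM in the libraries labelled KO and 59.9 and 204 CPM with IWR1, and Col6a3 at 134 and 221 CPM in control, 426 and 229 CPM in the group labelled KO and 25.00 and 66.3 CPM with IWR1. With IWR1 Col6a3 was below both other groups (against KO, -2.84 ± 0.56, adjusted p = 0.0259), whereas Col6a1 lay below the group labelled KO and overlapped with control, at -1.22 ± 0.53 (adjusted p = 0.16) and 0.20 ± 0.52 (adjusted p = 0.813). Col6a4, Col6a5 and Col6a6 reached at most 1.33, 1.06 and 12.7 CPM.

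Col18a1 (chromosome 10, 77052178 to 77166548) and Col15a1 are multiplexins, which bridge basement membranes to the tissue beneath. Col18a1 had the flattest course among genes that exceeded 10 CPM in every library, a 2.50-fold range over the 14 libraries. It stood at 284 and 275 CPM in the day 3 control and 539.5 and 526 CPM in KO, a called rise (0.93 ± 0.19, adjusted p = 0.0179) that was lost when any 1 library was left out (adjusted p up to 0.092). The day 5 libraries held 687 and 605 CPM in control and 684 and 462 CPM in KO, which overlapped. In the day 10 libraries it was at 600.1 and 584 CPM in control, 649 and 519 CPM in the libraries labelled KO and 348 and 352 CPM with IWR1. Col15a1 was counted at up to 0.891 CPM before day 10 and at 8.81 and 11.4 CPM in control, 11.5 and 6.26 CPM in the group labelled KO and 6.19 and 8.24 CPM with IWR1 at day 10, with no call.

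Col8a2, a short-chain collagen of the sheet beneath corneal endothelium and of vessel walls, stood at 5.45 and 6.06 CPM in the day 5 control and 1.44 and 1.48 CPM in KO, a log2 fold change of -1.97 ± 0.31 (adjusted p = 0.000923). Its day 10 level was 4.48 and 3.73 CPM in control, 31.7 and 34.3 CPM in the libraries labelled KO and 2.63 and 8.60 CPM with IWR1. The libraries labelled KO were highest and did not overlap with the other groups, with 3.01 ± 0.53 (adjusted p = 0.0306) against control. Its relative Col8a1 had no count at day 3 and was at most 6.35 CPM.

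The transmembrane Col13a1, found at muscle and adhesion sites, had the largest difference of all members between the lines at day 3, apart from genes with 3 counts or fewer in a group. It stood at 16.6 and 15.4 CPM in control and 0.972 and 0.507 CPM in KO, a log2 fold change of -4.42 ± 0.25 (adjusted p = 1.97e-06). Its day 5 values were 18.02 and 17.9 CPM in control and 7.58 and 8.37 CPM in KO (-1.17 ± 0.18, adjusted p = 0.000727). Col23a1, another of this class, stood at 12.1 and 8.71 CPM in the day 3 control and 1.15 and 1.44 CPM in KO (-3.00 ± 0.33, adjusted p = 0.000266) and at 36.4 and 32.4 CPM in control and 18.1 and 27.7 CPM in KO at day 5, where it was not called (-0.58 ± 0.21, adjusted p = 0.0516). Both genes were lower in every KO library of both days than in every control library of the same day. Col25a1, the transmembrane collagen also known from amyloid plaques, stood at 14.8 and 25.1 CPM in the day 10 control, 27.4 and 13.2 CPM in the libraries labelled KO and 15.9 and 31.02 CPM with IWR1, and it was called in no comparison.

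Col7a1, whose product anchors epithelium to the tissue below, was the gene called higher in KO on both early days. It stood at 7.74 and 6.33 CPM in control and 13.3 and 13.4 CPM in KO at day 3 and at 7.92 and 8.64 CPM in control and 22.9 and 32.9 CPM in KO at day 5. The groups did not overlap, and the log2 differences came to 0.92 ± 0.20 (adjusted p = 0.00752) and 1.75 ± 0.19 (adjusted p = 0.000121). Col26a1 stood at 28.4 and 22.3 CPM in the day 5 control and 8.57 and 10.9 CPM in KO (-1.38 ± 0.24, adjusted p = 0.00155), and at day 10 it was highest with IWR1, at 83.9 and 88.3 CPM against 20.4 and 23.5 CPM in control (1.97 ± 0.23, adjusted p = 0.00712).

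Chains that assemble together were next compared per kilobase within each library. The ratio of Col4a1 to Col4a2 was the narrowest among pairs with at least 10 counts of both chains in all 14 libraries, 1.67 to 2.71, a 1.62-fold range. That of Col1a1 to Col1a2 ran from 0.218 to 8.62, a 39.5-fold range, and its highest value was in library 1 of the day 5 KO. Within day 10 alone it ran from 0.724 to 1.12, a 1.55-fold range, although the levels of both genes differed many times between the groups. The ratio of Col5a1 to Col5a2 ran from 1.18 to 72.8, with 1.18 to 1.93 at day 10 and 6.65 to 72.8 at days 3 and 5. For Col6a1 to Col6a2 it ran from 0.260 to 2.38 and for Col11a1 to Col11a2 from 0.411 to 40.7. For Col4a5 to Col4a6, with counts enough in 13 libraries, it ran from 1.96 to 10.3. Not all pairs were close at day 10. The day 10 range was 14.5-fold for Col8a1 to Col8a2, 7.15-fold for Col9a2 to Col9a3 and 5.28-fold for Col6a3 to Col6a1. It was 3.97-fold for Col11a1 to Col11a2, 3.48-fold for Col9a1 to Col9a3 and 2.57-fold for Col4a5 to Col4a6. Col6a1 to Col6a2 and Col4a1 to Col4a2 were narrower there, at 1.34-fold and 1.17-fold. The level of a ratio depends on the transcript lengths chosen, but its range does not. Days 3 and 5 and day 10 were tabled apart, and depth differed between them.

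**Figure D5:**
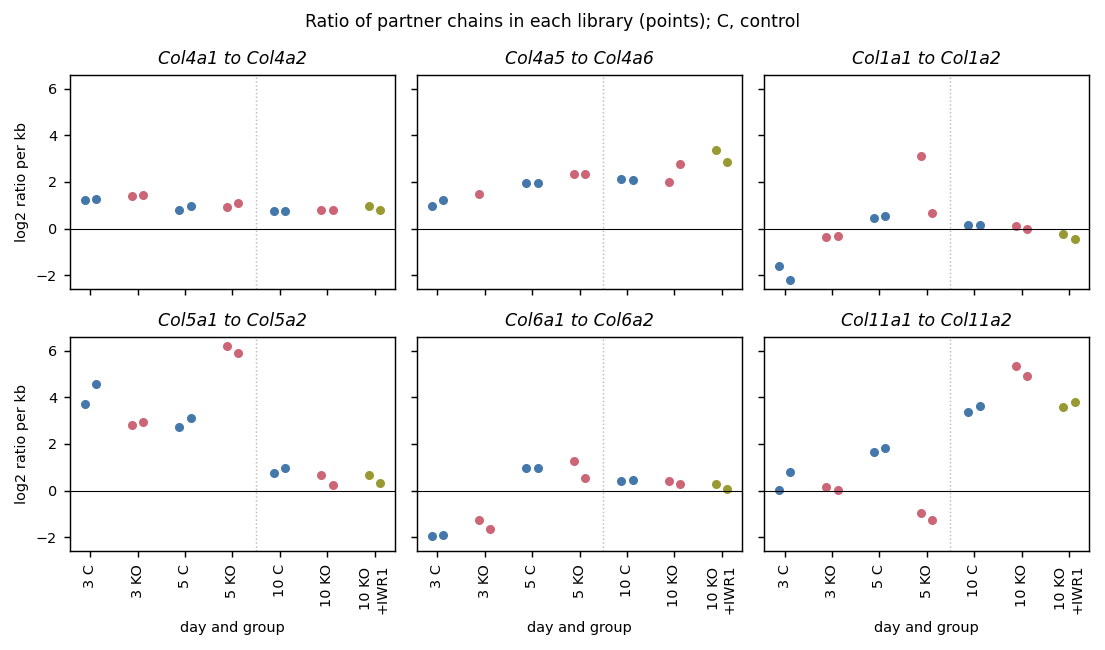
Log2 ratio per kilobase (y axis) of 6 pairs of collagen chains in each library (points) by day and group (x axis). Col4a1 to Col4a2 stays within a 1.62-fold range, while Col1a1 to Col1a2 and Col5a1 to Col5a2 spread widely at days 3 and 5 and run within 1.55-fold and 1.63-fold at day 10.

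Promoter windows of RefSeq (GRCm38.p6) were matched by symbol for 35 of the 44 genes, with 38 windows in all, and the 250 bases before each start were searched on both strands. A GC box (GGGCGG) was found in 22 of 38 windows (57.9%), against 32.7% of 32851 windows of all genes. A CCAAT box (CCAAT) was found in 13 (34.2%, against 33.8%) and a TATA box (TATAAA) in 5 (13.2%, against 12.4%). The windows of Col3a1 and Col5a1 are shown because both genes were called lower with IWR1 but stood far apart at day 3, at 0.176 and 0.0880 CPM and 33.2 and 31.8 CPM in control. Matches are in capitals. A match describes the letters only.
Col3a1, chr1:45311288-45311537, plus strand: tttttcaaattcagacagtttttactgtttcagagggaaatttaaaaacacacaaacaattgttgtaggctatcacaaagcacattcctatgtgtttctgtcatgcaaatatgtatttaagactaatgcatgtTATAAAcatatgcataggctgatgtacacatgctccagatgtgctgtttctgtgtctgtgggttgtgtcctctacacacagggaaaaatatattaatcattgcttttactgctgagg
Col5a1, chr2:27886175-27886424, plus strand: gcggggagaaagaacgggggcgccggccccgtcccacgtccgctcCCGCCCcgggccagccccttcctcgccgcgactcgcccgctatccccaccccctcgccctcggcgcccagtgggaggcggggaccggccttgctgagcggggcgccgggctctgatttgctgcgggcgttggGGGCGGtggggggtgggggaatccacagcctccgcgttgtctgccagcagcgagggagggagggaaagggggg

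Genes that make, trim and read collagen were followed as lists. The share of all genes called, beside which the list counts stand, was 32.9% at day 3, 43.5% at day 5, 5.27% for KO against control at day 10 by the labels and 13.9% for IWR1 against KO. Of 14 genes for hydroxylation and glycosylation of collagen chains, 6 were higher and 1 lower in KO at day 3, 0 higher and 6 lower at day 5, 3 higher and 0 lower in the libraries labelled KO at day 10, and 0 higher and 7 lower with IWR1 against KO. Among them P3h1, a prolyl 3-hydroxylase, stood at 65.8 ± 6.26 CPM (mean ± SD, n = 2) in the day 5 control and 34.8 ± 4.54 CPM in KO (-0.92 ± 0.12, adjusted p = 0.000266). By day 10 the libraries held 57.97 ± 2.37 CPM in control, 130.2 ± 6.08 CPM in the libraries labelled KO (1.17 ± 0.21, adjusted p = 0.0322) and 44.6 ± 9.54 CPM with IWR1 (against KO, -1.55 ± 0.22, adjusted p = 0.0132). Its partner Crtap stood at 72.7 ± 2.55, 184 ± 2.92 and 50.8 ± 13.5 CPM at day 10. The medians of this list, 0.10, -0.22, 0.60 and -0.85 in the 4 comparisons, stand beside medians of all genes of -0.01, 0.01, 0.02 and -0.01.

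Of 12 genes for folding and secretion, 4 were higher and 3 lower in KO at day 3, 1 higher and 7 lower at day 5, 2 higher and 0 lower at day 10 by the labels, and 0 higher and 7 lower with IWR1 (medians -0.05, -0.64, 0.86 and -1.10; all genes: 32.9%, 43.5%, 5.27% and 13.9% called in these comparisons). Serpinh1, the chaperone of procollagen in the endoplasmic reticulum, stood at 1602 ± 102 CPM in the day 5 control and 904 ± 185 CPM in KO (-0.83 ± 0.13, adjusted p = 0.00441). The transcription factor gene Creb3l1, known as a regulator of type I collagen in bone, stood at 121 ± 14.3 and 42.6 ± 15.1 CPM (-1.51 ± 0.24, adjusted p = 0.00305). Fkbp10, an endoplasmic reticulum isomerase, stood at 129.9 ± 1.62 CPM in the day 10 control, 366 ± 21.4 CPM in the libraries labelled KO and 85.1 ± 31.8 CPM with IWR1.

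Of the genes for procollagen trimming and cross-linking, 12 were tested at days 3 and 5 and 13 at day 10. In KO 2 were higher and 2 lower at day 3, 4 higher and 6 lower at day 5, and 4 higher and 1 lower at day 10 by the labels, and 1 was higher and 7 lower with IWR1 (all genes: 32.9%, 43.5%, 5.27% and 13.9% called in these comparisons). Lox, the enzyme that starts cross-links, stood at 68.8 ± 15.9 CPM in the day 10 control, 371 ± 20.2 CPM in the libraries labelled KO (2.43 ± 0.43, adjusted p = 0.0309) and 9.89 ± 5.999 CPM with IWR1 (against KO, -5.23 ± 0.50, adjusted p = 0.00675). Pcolce, which speeds removal of the procollagen end piece, stood at 71.9 ± 2.08, 345 ± 29.5 and 94.4 ± 23.7 CPM. Of the collagen receptors, 1 was higher and 2 lower of 9 at day 3, 0 higher and 4 lower of 9 at day 5, 1 higher and 0 lower of 10 at day 10, and 0 higher and 3 lower of 10 with IWR1, beside the same shares of all genes. Ddr2, a receptor kinase for fibrillar collagen, stood at 4.36 ± 0.132 CPM in the day 5 control and 0.442 ± 0.115 CPM in KO (-3.27 ± 0.64, adjusted p = 0.00294), and at 12.99 ± 1.29 CPM in the day 10 control and 75.4 ± 2.60 CPM in the libraries labelled KO (2.54 ± 0.29, adjusted p = 0.0105).

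Collagen-cleaving proteases gave 3 higher and 1 lower of 5 at day 3, 2 and 2 of 5 at day 5, 3 and 0 of 7 at day 10, and 0 and 1 of 7 with IWR1 (all genes: 32.9%, 43.5%, 5.27% and 13.9% called in these comparisons). Of 14 partners of type IV in the basement membrane (laminins, nidogens and proteoglycans), 4 were higher and 0 lower in KO at day 3, 5 higher and 2 lower at day 5, 0 higher and 1 lower at day 10, and 0 higher and 11 lower with IWR1, beside the same shares of all genes. In the last comparison Nid2, a nidogen that links laminin to type IV collagen, stood at 789.5 ± 174 CPM in the libraries labelled KO and 102 ± 54.3 CPM with IWR1 (-2.95 ± 0.41, adjusted p = 0.0137). Its list summed to 531 and 934 CPM with IWR1, below all other day 10 libraries (1739 to 3670.4 CPM).

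Markers of cell types that make collagen also differed between groups. The 10 mesenchyme and fibroblast markers summed to 103 and 106 CPM in the day 3 control and 23.8 and 28.7 CPM in KO, with Lum at 0 in all 4 libraries and Tcf21 at 0 in both KO libraries, and to 699.6 and 626 against 249 and 104 CPM at day 5. At day 10 they summed to 1241 and 1284 CPM in control, 2935 and 3291 CPM in the libraries labelled KO and 465 and 819 CPM with IWR1. Their sums had the same order as the fibrillar sums in the 3 day 10 groups and at day 5, but a sum follows its most abundant genes. For the 10 markers the median log2 difference was -0.62 at day 3, -1.40 at day 5 and 0.81 at day 10 by the labels. With IWR1 it was -0.13 against KO and 0.10 against control, so the list as a whole did not follow the order of the sums there. At day 3 the fibrillar sums overlapped, with 87.2 and 85.2 CPM in control and 94.5 and 85.1 CPM in KO. Of the 10, 2 were called lower and 1 higher at day 3, and 4 lower and 1 higher at day 5, where 32.9% and 43.5% of all genes were called. At day 10, 4 were called higher and 0 lower by the labels (5.27% of all genes called), and 3 lower and 2 higher with IWR1 against KO (13.9%). Against control, 1 was called lower and 2 higher with IWR1 (9.12%). The part of these cells in the collagen results was not tested. At day 3, the sampled day nearest to removal of the feeder fibroblasts, Col1a1 was at most 5.40 CPM and Col3a1 at most 0.618 CPM. Whether feeder cells remained in any group was not tested.

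The other marker lists also differed between groups, and their part was not tested either. Their calls stand beside 32.9% of all genes at day 3, 43.5% at day 5, and 5.27% (KO against control) and 13.9% (IWR1 against KO) at day 10. The 7 cardiomyocyte markers summed to 2781 and 2534 CPM in the day 10 control, 62.4 and 129 CPM in the libraries labelled KO and 221 and 175 CPM with IWR1, and all 7 were called lower in the libraries labelled KO than in control. The 7 visceral endoderm markers summed to 4925 and 4078 CPM in control, 1799 and 685 CPM in the group labelled KO and 66.02 and 128 CPM with IWR1, and all 7 were called lower with IWR1 than in the libraries labelled KO. The 7 neural markers summed to 71.9 and 92.7 CPM in the day 10 control, 76.4 and 56.8 CPM in the group labelled KO and 308 and 386 CPM with IWR1, and 6 were called higher with IWR1 than in the group labelled KO. Earlier they summed to 223 and 215 CPM in control and 373 and 372 CPM in KO at day 3, where 6 were called higher in KO and 0 lower. At day 5 the sums were 26.6 and 24.7 against 133 and 124 CPM, with 4 called higher and 0 lower. The 8 parietal endoderm markers, which include Lama1, Lamb1 and Nid1 of the basement membrane list, summed to 751 and 772 CPM in the day 3 control and 409 and 429 CPM in KO. At day 5 they summed to 743 and 684 CPM in control and 873 and 570.2 CPM in KO. In KO 1 was called higher and 1 lower at day 3, with a median log2 difference of -0.09 over the 8. At day 5, 1 was called higher and 0 lower, with a median of 0.53. The 7 pluripotent cell markers stood at 2363 and 2322 CPM in the day 3 control and 1868 and 1948 CPM in KO, and at 53.7 and 65.1 against 293 and 559 CPM at day 5, when all 7 were called higher in KO.

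The 8 early mesoderm markers summed to 1947 and 2033 CPM in the day 3 control against 208 and 254 CPM in KO, and to 20.4 and 36.1 against 113 and 194 CPM at day 5. Of these 8, 6 were called lower in KO at day 3 and 3 higher at day 5. The 6 endothelium markers summed to 239 and 188 CPM in the day 5 control and 334 and 91.3 CPM in KO, where library 1 held the higher value. Of the collagen genes over 2-fold apart in the day 5 KO, Col1a1, Col3a1, Col5a1 and Col6a3 were higher in library 1. Col2a1 and Col9a3 were higher in library 2. Of 5 endothelium markers tested at day 5, 0 were called higher and 0 lower. The 8 cartilage markers summed to 6.33 and 6.42 CPM in the day 3 control and 20.1 and 15.3 CPM in KO, and to 70.3 and 56.4 against 171 and 53.9 CPM at day 5. Of 6 tested, 2 were called higher and 0 lower at day 3, and 2 higher and 1 lower at day 5. Their day 10 sums were 64.6 and 56.9 CPM in the day 10 control, 30.5 and 51.5 CPM in the libraries labelled KO and 84.5 and 59.9 CPM with IWR1, with Snorc at 0 in all 6 libraries. Of 4 tested, 0 were called higher and 1 lower in the group labelled KO than in control. The median log2 difference of the 4 was 0.53 there, so the list as a whole did not follow the sums. With IWR1, 2 of the 4 were called higher and 0 lower than in the group labelled KO. The 6 bone markers summed to 79.6 and 77.7 CPM in the day 3 control and 124 and 124 CPM in KO, and to 19.01 and 24.8 against 43.8 and 56.5 CPM at day 5. The sums were higher in KO on both days, but only 2 of the 6 passed the filter on low counts. Of 2 tested, 1 was called higher at day 3 and both at day 5. The median log2 difference of the 2 at day 3 was -0.37, so the other tested marker had an estimate below 0. At day 10 their sums were 18.9 and 23.1 CPM in control, 33.6 and 19.2 CPM in the group labelled KO and 15.8 and 17.4 CPM with IWR1.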

How the data were processed

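The authors deposited estimated counts per gene, made with kallisto 0.46.2 per the submitters' processing notes, which name mm10, in one table for days 3 and 5 and another for day 10. All 36047 gene IDs matched GENCODE vM21. The kit is named as one of a stranded and an unstranded form, so overlapping genes such as Col4a1 and Col4a2 may share reads. Rounded counts were scaled by TMM in edgeR 4.0.16 (R 4.3.3), filtered with filterByExpr (14430 genes of days 3 and 5, 17022 of day 10) and tested by the quasi-likelihood test, each table in a fit over all its groups, with Benjamini-Hochberg adjustment over all genes and a threshold of 0.05. CPM use the scaled totals, and per-kilobase levels divide CPM by the longest coding transcript. Errors of log2 fold changes are SE worked back from the test, as the size of the log2 fold change over the square root of its F statistic.

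The labels do not say whether libraries came from separate cultures, so p-values measure the spread between these samples only, with 4 and 3 residual degrees of freedom. Members and lists were chosen with earlier results of these data known. Named were a set of 19 index genes, other members mostly where called, and of each list the genes with the smallest p. Alternatives were other scalings, filters and fits, DESeq2 1.42.0, a replicate block and each library left out.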

Additional observations from a re-analysis of the deposited data

Results flagged for a closer look

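The difference between KO and control changed from day 3 to day 5 for 14 of 33 collagen genes, by edgeR's test of that change over all genes at an adjusted p under 0.05. Of all genes tested, 24.2% were called. The change was downward, in log2 units, for Col5a2 (-3.87), Col1a2 (-3.01), Col9a2 (-2.10), Col8a2 (-2.07), Col6a1 (-1.96), Col16a1 (-1.80), Col6a2 (-1.50), Col11a1 (-1.16) and Col18a1 (-1.10). It was upward for Col13a1 (3.26), Col14a1 (2.94), Col23a1 (2.41), Col11a2 (1.43) and Col27a1 (1.02).

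For the genes below, both libraries labelled KO lay on one side of control on an early day and on the opposite side at day 10. The 2 tables were fitted apart, so these differences between days were not tested, and the label KO at day 10 is not borne out by the level of Foxk1. How many of all genes changed sides in this way was not counted, so the changes are not read as particular to collagen genes. Against day 3, the log2 fold change went from -0.84 to 1.87 for Col4a5, from -1.70 to 1.59 for Col4a6, from 1.86 to -3.12 for Col2a1 and from -2.28 to 0.57 for Col14a1. It went from -0.45 to 1.75 for Col1a2, from -0.45 to 1.21 for Col5a1, from -0.82 to 0.84 for Col11a1 and from -1.39 to 0.57 for Col26a1.

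Against day 5, estimates went from below to above 0 for 12 genes, Col1a1 from -1.64 to 1.67, Col1a2 from -3.45 to 1.75, Col3a1 from -2.73 to 1.20 and Col5a2 from -3.14 to 1.56. The others were Col11a1 (from -1.98 to 0.84), Col4a5 (-1.85 to 1.87), Col4a6 (-2.22 to 1.59), Col6a1 (-1.15 to 1.42), Col6a2 (-1.14 to 1.49), Col8a2 (-1.97 to 3.01), Col16a1 (-0.92 to 1.16) and Col26a1 (-1.38 to 0.57). Col2a1 (from 2.46 to -3.12) and Col11a2 (from 0.88 to -0.81) went the other way. Of all these, Col4a5 and Col8a2 were called on both day 5 and day 10.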

How the results depend on the processing

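Over 117 called differences of single collagen genes and 1471 values under alternatives, 1305 kept direction and call, 166 lost the call and 0 changed direction. RLE or upper-quartile scaling and protein-coding genes alone lost none. A stricter filter lost none of those it kept but left out Col4a4 in IWR1 against KO. DESeq2 lost 13 and the fits of only the compared groups 11, and of 524 values with a library left out 392 kept the call. In those fits the lone library of a group is taken to vary like the others. Depth limits genes under about 1 CPM at days 3 and 5. The cause of these shifts was not tested.

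With a library left out, day 3 counts ran from 4 to 8 (0 to 1 higher, 3 to 7 lower) and day 5 counts from 12 to 25 (1 to 7 higher, 11 to 19 lower). Day 5 against day 3 ran from 21 to 24 in control (20 to 22 higher, 0 to 2 lower) and from 17 to 27 in KO (14 to 23 higher, 2 to 5 lower), and the change of the KO difference from 8 to 24 (2 to 11 higher, 6 to 14 lower). At day 10, KO against control ran from 1 to 5 (0 to 2 higher, 1 to 3 lower), IWR1 against KO from 8 to 22 (1 to 4 higher, 6 to 18 lower) and IWR1 against control from 0 to 18 (0 to 2 higher, 0 to 16 lower).

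With only the compared groups, day 3 gave 22 calls, 9 of them higher, where calls over all genes went from 4743 to 7334. For day 5 against day 3 in control, lower calls were 0 with DESeq2 and 5 with no filter on low counts, and in KO 4 with no filter. DESeq2 gave 3 higher calls for the change of the KO difference. KO against control at day 10 gave 15 with DESeq2 (10 higher, 5 lower), 12 with no filter (7 higher, 5 lower) and 13 with only the compared groups (10 higher). Calls over all genes there were 2023, 1737 and 1202, against 897 before. IWR1 against KO gave 3 higher calls with only the compared groups. IWR1 against control gave 19 with DESeq2 (17 lower), 15 with no filter (13 lower) and 8 with only the compared groups (6 lower). Calls over all genes there were 3456, 3093 and 1864, against 1553 before.

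Library numbers were not treated as pairs: deviations of same-numbered libraries correlated from -0.0923 to 0.198 in days 3 and 5 and at -0.837, 0.715 and -0.788 between the day 10 groups. A replicate block left 3 higher calls for IWR1 against KO, 16 in all, and 3 calls for IWR1 against control, 1 of them lower, and it moved no other count by over 1.5 times. With crossed numbers, a choice made after seeing the data, KO against control gave 17 calls at day 10 (12 higher, 5 lower) and IWR1 against control 21 (18 lower). Calls over all genes were 3257 and 7182 in these 2 comparisons.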
